A study of Homo sapiens with 4 samples.

Results

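Cytokine signals enter a cell through pairs of receptor chains, and 10 such chains are described here in human colorectal cancer cells: *IL6R*, *IL6ST*, *IL4R*, *IL13RA1*, *IL22RA1*, *IL10RB*, *IFNLR1*, *IFNAR1*, *IFNGR1* and *IFNGR2*. They were found by matching the Ensembl gene identifiers of the deposited count table to these symbols, which gave 10 genes of the 61544 in the table. The samples were HT29 cells and HCT116 cells, both established lines of colorectal cancer epithelium. Each line gave 1 library from cells treated with lipopolysaccharide (LPS, a component of the bacterial outer membrane) at 1 ug/mL for 24 h and 1 library from control cells, so there were 4 libraries and no repeat cultures. The study compared lines that differ in their basal level of the glucocorticoid receptor, and used LPS as an in vitro model of intestinal inflammation. The labels name no transgene or engineered deletion in either line, and both lines grew in the same medium. Each is a culture of cancer cells alone, which limits it as a model of inflamed tissue.

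The chains belong to the families of receptors that signal through Janus kinases (JAK) and STAT transcription factors. A ligand draws 2 different chains together, the kinases bound to their tails phosphorylate the receptor, and the STAT proteins that dock there enter the nucleus. One chain usually sets which ligand is bound and the other is often shared, so that a response usually draws on both. In the intestinal epithelium such receptors are known for repair and antimicrobial defence (interleukin 22), for changes in the barrier (interleukins 4, 13 and 6) and for antiviral and inflammatory responses (the interferons).

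The libraries held 19105058 to 21268959 counts, and the genes of the mitochondrial genome took 4.29% and 3.75% of them in HT29 cells (LPS and control) and 7.16% and 5.01% in HCT116 cells. Of 12 epithelial markers, 11 had counts in each HT29 library and 8 in each HCT116 library, though not the same 8 in both HCT116 libraries. *KRT20*, which has a near-identical copy on an alternate contig, was at 0 in all 4 libraries. *EPCAM*, the epithelial adhesion molecule, had 16906 and 17033 counts in HT29 cells and 4155 and 5292 counts in HCT116 cells. The intestinal genes *LGALS4* (8299 and 7005 counts), *VIL1* (3004 and 2637) and *CEACAM5* (490 and 428) were found in HT29 cells, against 10 and 0, 0 and 4, and 0 and 0 counts in HCT116 cells, while *CDX2* had 39 and 18 counts in HT29 cells and 572 and 474 in HCT116 cells. The leukocyte list summed to 1051 and 1036 CPM (counts-per-million, normalized by TMM) in HT29 cells, nearly all of it *LYZ* (lysozyme, 20709 and 18532 counts, with 137 and 140 of the monocyte marker *CD14*), and to 2.85 and 2.92 CPM in HCT116 cells, whereas *PTPRC*, the marker of all leukocytes, had 2 and 0 counts in HT29 cells and 0 and 0 in HCT116 cells. The fibroblast and endothelial list summed to 5.64 and 7.71 CPM in HT29 cells and 101 and 102 CPM in HCT116 cells, nearly all of it *COL1A1* in HCT116 cells (1999 and 2225 counts), with 28 and 39 counts of the endothelial marker *PECAM1* in HT29 cells and 5 and 14 in HCT116 cells, and the part of these markers in the results was not tested.

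The chains lie on 6 chromosomes of hg38, and several are neighbours. *IL22RA1* (chromosome 1, 24119771 to 24143140, minus strand) and *IFNLR1* (chromosome 1, 24154168 to 24187959, minus strand) are separated by 11027 bases. *IL10RB* (33266367 to 33311420), *IFNAR1* (33324387 to 33359864) and *IFNGR2* (33403413 to 33479348) follow each other on the plus strand of chromosome 21, with gaps of 12966 and 43548 bases. The others are *IL6R* (chromosome 1, 154405193 to 154469450, plus strand), *IL6ST* (chromosome 5, 55935095 to 55995022, minus strand), *IL4R* (chromosome 16, 27313668 to 27364778, plus strand), *IL13RA1* (chromosome X, 118727133 to 118794535, plus strand) and *IFNGR1* (chromosome 6, 137197483 to 137219449, minus strand). All positions are those of whole genes in GENCODE release 44.

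*IL22RA1* and *IFNLR1* are shown in sequence because they are the closest pair and because the first was far higher in HT29 cells and the other far lower. Each run is the 250 bases before the RefSeq start site in GRCh38.p14, written 5′ to 3′ on the minus strand of the gene, with each CpG dinucleotide in capitals. They cover chr1:24143141-24143390 for *IL22RA1* and chr1:24187290-24187539 for *IFNLR1*. The *IL22RA1* run lies just upstream of the GENCODE 44 gene, which starts at 24143140 on the minus strand. The *IFNLR1* run lies within the GENCODE 44 gene, which starts at 24187959, so the 2 runs differ in their place.
IL22RA1: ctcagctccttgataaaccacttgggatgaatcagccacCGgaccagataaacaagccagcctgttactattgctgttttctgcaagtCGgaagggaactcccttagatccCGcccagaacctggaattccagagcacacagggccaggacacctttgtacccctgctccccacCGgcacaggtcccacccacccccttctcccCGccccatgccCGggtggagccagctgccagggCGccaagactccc
IFNLR1: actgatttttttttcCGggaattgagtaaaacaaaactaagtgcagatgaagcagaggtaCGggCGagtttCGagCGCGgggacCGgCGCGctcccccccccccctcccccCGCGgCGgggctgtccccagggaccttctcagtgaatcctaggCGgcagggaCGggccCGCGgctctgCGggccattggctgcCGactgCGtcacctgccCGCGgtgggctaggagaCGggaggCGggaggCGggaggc
The *IL22RA1* run holds 7 CpG and the *IFNLR1* run 24. With the next 50 bases included, the *IL22RA1* window held 8 CpG and the *IFNLR1* window 31. The median of 35116 RefSeq promoter windows of the same 300 bases was 14, and 39.3% of the windows held fewer than *IL22RA1*. The other 8 chains had between 19 and 44 CpG, so that *IL22RA1* was the only 1 of the 10 below the median. The interferon-gamma activated motif TTCNNNGAA, searched on both strands, was found in the windows of *IL10RB* and *IFNLR1* only, and 7.66% of all windows held it. The interferon-stimulated response element TTTCNNTTTC and the letters TATAAA were found in none of the 12 windows of the 10 chains, against 3.57% and 11.5% of all windows. The NF-κB consensus was found in 5 of the 12 windows (those of *IL6ST*, *IL4R*, *IL22RA1*, *IFNGR2* and 1 of *IFNGR1*), against 11.3% of all windows. The GC box GGGCGG was found in 10 of the 12, against 45.0% of all windows. Of the 8 NF-κB matches, 2 overlapped a GC box. The GC content of the 12 windows ran from 51.3% to 80.0%, and from 60.7% to 80.0% in those with an NF-κB match. The median over all windows was 58.7%, and the part of base composition in these counts was not tested. These matches describe the letters in the windows, and no binding or methylation was measured.

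Levels are given as normalized CPM per kilobase of exons, so that chains of different length can be set side by side, and intervals cover counting error only. *IFNGR1*, the ligand-binding chain of the interferon-gamma receptor, was the highest of the 10 in HT29 cells, at 35.1 (33.7 to 36.5) with LPS and 32.3 (30.9 to 33.7) in the control, levels above those of 90.0% and 88.8% of the genes tested. *IL13RA1* came next at 19.5 and 20.1, then *IL22RA1* at 15.5 and 16.6, *IL4R* at 11.8 and 11.5 and *IL6ST* at 8.31 and 7.49. The counting intervals of these 5 did not overlap with those of their neighbours in the order. *IFNAR1* and *IFNGR2* followed with overlapping intervals, and *IFNLR1* and *IL6R* exchanged places between the HT29 libraries, again with overlapping intervals.

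In HCT116 cells the order was another one. *IL13RA1* was highest at 8.74 (8.16 to 9.35) with LPS and 8.36 (7.81 to 8.93) in the control, and *IL4R*, *IFNAR1* and *IFNGR1* lay between 5.28 and 7.57. *IL22RA1*, the third in HT29 cells, was ninth, at 1.35 with LPS and 1.08 in the control. *IL10RB* was lowest in all 4 libraries, at 0.0377 and 0.0138 in HT29 cells and 0.102 and 0.264 in HCT116 cells. Overlap of counting intervals was read between neighbours in the order only, so other pairs can overlap too. With LPS the intervals of *IL4R* and *IFNAR1*, of *IFNAR1* and *IFNGR1* and of *IFNGR2* and *IL6ST* overlapped. In the control those of *IL13RA1* and *IFNAR1*, of *IL4R* and *IFNGR1*, of *IFNLR1* and *IFNGR2* and of *IFNGR2* and *IL6R* overlapped.

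**Figure D1:**
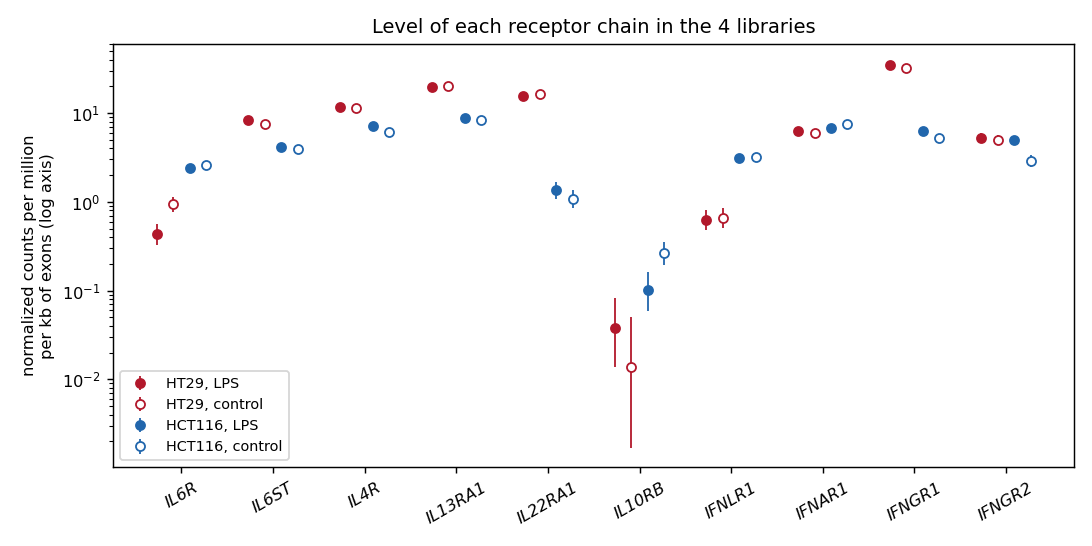
Level of each of the 10 chains (horizontal axis) in normalized CPM per kilobase of exons (vertical log axis) in the HT29 LPS, HT29 control, HCT116 LPS and HCT116 control libraries, with bars for the 95% counting interval. *IFNGR1* in HT29 cells is the highest point, at 35.1, and *IL10RB* lies lowest in every library.

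In TMM-normalized CPM, both HT29 libraries lay on the same side of both HCT116 libraries in each of the 10 chains. That was also so for 87.7% of the 14516 genes tested, so this count is near the background. For *IFNGR2* the margin was small, at 12.8 CPM in the HT29 control against 12.6 CPM in HCT116 cells with LPS. The counting intervals of the log2 ratio between the LPS libraries included 0 for *IFNGR2* (-0.15 to 0.35) and *IFNAR1* (-0.24 to 0.03). In the edgeR quasi-likelihood test of HT29 against HCT116, fitted with a term for the line and a term for LPS, 9 chains had enough counts and 9 passed an adjusted p of 0.05. Of these, 6 were higher and 3 lower in HT29 cells, where 38.0% of all genes tested were called higher and 38.6% lower, so the calls alone are near the background. With a log2 fold change past 1 as well, 3 chains were higher (16.6% of all genes) and 2 lower (23.3% of all genes). The median log2 fold change of the 9 chains was 0.81, against -0.02 over all genes tested. The p-values rest on 1 residual degree of freedom and on a variance estimated across genes, and they do not measure the spread between cultures. Their size moved with the filter on low counts. For *IL22RA1*, at a log2 fold change of 3.72 both times, the edgeR adjusted p was 2.0e-14 with 1 CPM asked and 1.5e-122 with 5 CPM.

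*IL22RA1*, the chain that binds interleukin 22 and is typical of epithelial cells, had the widest difference. It had 868 counts with LPS and 844 in the control of HT29 cells, against 79 and 69 counts in HCT116 cells. The lines did not overlap, and the fitted level was 13.2-fold higher in HT29 cells (log2 fold change 3.72, SE 0.16, edgeR adjusted p = 2.0e-14). The difference was 3.48 on the log2 scale between the LPS libraries (3.18 to 3.87) and 3.90 between the controls (3.58 to 4.32).

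*IFNGR1* had 2470 and 2065 counts in HT29 cells (LPS and control), against 460 and 424 counts in HCT116 cells. It was 5.84-fold higher in HT29 cells (log2 fold change 2.55, SE 0.08, edgeR adjusted p = 2.6e-16). Its partner *IFNGR2*, the chain that completes the interferon-gamma receptor, was nearer to equal between the lines. It had 267 and 230 counts in HT29 cells, against 260 and 167 in HCT116 cells, so that the HT29 libraries lay close to the HCT116 library treated with LPS. *IFNGR2* only just passed the test (log2 fold change 0.43, SE 0.19, edgeR adjusted p = 0.049), DESeq2 did not call it (adjusted p = 0.24), and without the HCT116 control the log2 fold change was 0.06 (edgeR adjusted p = 0.81). Without HT29 LPS it was 0.36 (edgeR adjusted p = 0.13) and without the HT29 control 0.44 (edgeR adjusted p = 0.075), whereas without HCT116 LPS it was 0.82 (edgeR adjusted p = 0.0014). *IFNGR2* is also the only 1 of the 10 chains whose transcript has a near-identical copy on an alternate contig of hg38, and 15.0% of its exon bases lie under exons of *TMEM50B* on the other strand, so its counts are uncertain.

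*IL13RA1* and *IL4R* together form a receptor for interleukins 4 and 13, and both were higher in HT29 cells. *IL13RA1*, the interleukin 13 binding chain, had 1799 and 1682 counts in HT29 cells, against 841 and 879 counts in HCT116 cells (log2 fold change 1.21, SE 0.08, edgeR adjusted p = 2.1e-11). *IL4R*, the chain that both ligands use, had 1379 and 1221 counts in HT29 cells, against 872 and 825 in HCT116 cells (log2 fold change 0.81, SE 0.09, edgeR adjusted p = 5.0e-08). In neither chain did the lines overlap.

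The chains of the interleukin 6 receptor went in opposite directions. *IL6ST* (gp130), the signalling chain shared by most of the interleukin 6 family, had 1670 and 1367 counts in HT29 cells, against 874 and 900 in HCT116 cells. Its level was 1.95-fold higher in HT29 cells (log2 fold change 0.96, SE 0.08, edgeR adjusted p = 1.0e-09). *IL6R*, which binds interleukin 6 itself, had 55 and 109 counts in HT29 cells, against 321 and 383 counts in HCT116 cells, and was 3.84-fold lower in HT29 cells (log2 fold change -1.94, SE 0.22, edgeR adjusted p = 1.4e-07). The size of this difference rested on which HT29 library was used: the log2 fold change was -2.55 without the HT29 control and -1.42 without HT29 LPS.

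*IFNLR1*, the chain that binds the lambda interferons and is found mostly in epithelia, was 4.84-fold lower in HT29 cells. It had 62 and 59 counts in HT29 cells, against 316 and 356 counts in HCT116 cells (log2 fold change -2.28, SE 0.21, edgeR adjusted p = 3.5e-09), the opposite of its neighbour *IL22RA1*. *IFNAR1*, a chain of the receptor for the alpha and beta interferons, had 858 and 731 counts in HT29 cells, against 959 and 1178 counts in HCT116 cells. This was the smallest difference (log2 fold change -0.23, SE 0.10, edgeR adjusted p = 0.038), and DESeq2 did not call it (adjusted p = 0.084). Leaving out the HT29 control or the HCT116 control also ended the call (edgeR adjusted p = 0.17 and 0.30).

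*IL10RB*, the chain shared by the receptors for interleukins 10 and 22 and the lambda interferons, had 6 and 2 counts in HT29 cells, against 17 and 48 counts in HCT116 cells. Its mean was below 1 CPM over the 4 libraries, so it was not among the 9. With no filter on low counts it was called lower in HT29 cells (log2 fold change -2.66, edgeR adjusted p = 0.0014). The log2 ratio between the lines was -1.20 with LPS (-3.07 to -0.03) and -3.41 in the controls (-7.34 to -2.33). These counts have a limit: 89.2% of the 1941 bases of its canonical transcript are also exons of the readthrough gene *IFNAR2-IL10RB* on the same strand. That gene's own row held 0 and 0 counts in HT29 cells and 0 and 1 in HCT116 cells. A read that falls on both genes can be left uncounted, and whether this sets the low counts was not tested. Its mean level over the 4 libraries was 0.105 per kilobase of all its exons and 0.133 per kilobase of the exon bases that no other gene covers, the lowest of the 10 chains on both lengths. Per kilobase of the 209 unshared bases of its canonical transcript the value was 4.01, at rank 8. Its last place therefore depended on the length used, and which bases the counts came from is not known.

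**Figure D2:**
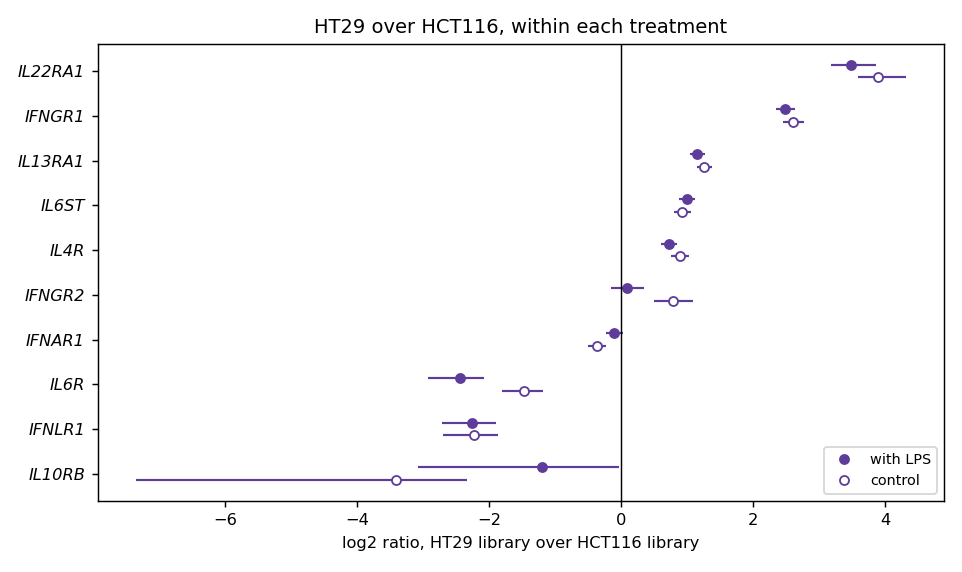
Log2 ratio of the HT29 library over the HCT116 library (horizontal axis) for each of the 10 chains, with LPS (filled points) and in the control (open points), with lines for the 95% counting interval. *IL22RA1* lies farthest to the right, at 3.48 and 3.90, and *IL6R*, *IFNLR1* and *IL10RB* lie left of -1.

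The design also asked how LPS changed each chain. In the edgeR test of LPS against control over both lines, 0 of the 9 chains tested passed the adjusted threshold, where 0.124% of all genes were called higher and 0.0964% lower. At an unadjusted p under 0.05 there were 3 chains, against 7.58% of all genes. DESeq2 gave an adjusted p for 4 of the 9 chains and called 0. Within a line each condition had 1 library, so no test was made, and a size of 0.58 on the log2 scale was used to describe the ratios. In HT29 cells 1 of the 9 chains with at least 1 CPM lay below -0.58 and 0 above 0.58, against 2.70% and 3.50% of all genes. In HCT116 cells 1 of 10 lay below -0.58 and 1 above 0.58, against 2.34% and 3.56% of all genes.

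The chain below -0.58 in HT29 cells was *IL6R*, with 55 counts with LPS against 109 in the control (log2 ratio -1.10, -1.62 to -0.65). In HCT116 cells it had 321 counts with LPS against 383 in the control, a log2 ratio of -0.13 (-0.35 to 0.09), and the intervals of the lines did not overlap. Over both lines the log2 fold change was -0.52 (SE 0.22, edgeR adjusted p = 0.59). The difference between the lines' responses could not be tested with 1 library per condition.

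*IFNGR2* was the chain above 0.58 in HCT116 cells, with 260 counts with LPS against 167 in the control (log2 ratio 0.76, 0.48 to 1.06). In HT29 cells it had 267 counts with LPS against 230 in the control (log2 ratio 0.08, -0.18 to 0.34). Over both lines its log2 fold change was 0.41 (SE 0.19, edgeR adjusted p = 0.64). *IL10RB* was the chain below -0.58 in HCT116 cells, with 17 counts with LPS against 48 in the control (log2 ratio -1.27, -2.26 to -0.55). In HT29 cells, with 6 counts with LPS against 2 in the control, its ratio could not be read.

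Among the rest, *IFNGR1* was slightly higher with LPS in both lines, with log2 ratios of 0.12 (0.03 to 0.20) in HT29 cells and 0.24 (0.05 to 0.44) in HCT116 cells, and did not pass the test over both lines (log2 fold change 0.17, SE 0.08, edgeR adjusted p = 0.65). *IL6ST* had a log2 ratio of 0.15 (0.05 to 0.25) in HT29 cells and 0.09 (-0.05 to 0.22) in HCT116 cells. *IL4R* had 0.04 (-0.08 to 0.15) in HT29 cells and 0.21 (0.07 to 0.35) in HCT116 cells. *IFNLR1* had -0.07 and -0.04, and its interval in HT29 cells, -0.61 to 0.47, was wide. The genes of the mitochondrial genome also moved with LPS: 3 of 13 passed the test over both lines and all 3 were higher, with a median log2 fold change of 0.40 over the 13 (*MT-CYB*, *MT-ND5* and *MT-ND4L* were those called). With these genes left out of the library sizes, the log2 ratio of *IL6R* in HT29 cells was -1.09, that of *IFNGR2* in HCT116 cells 0.76 and that of *IL10RB* in HCT116 cells -1.27.

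**Figure D3:**
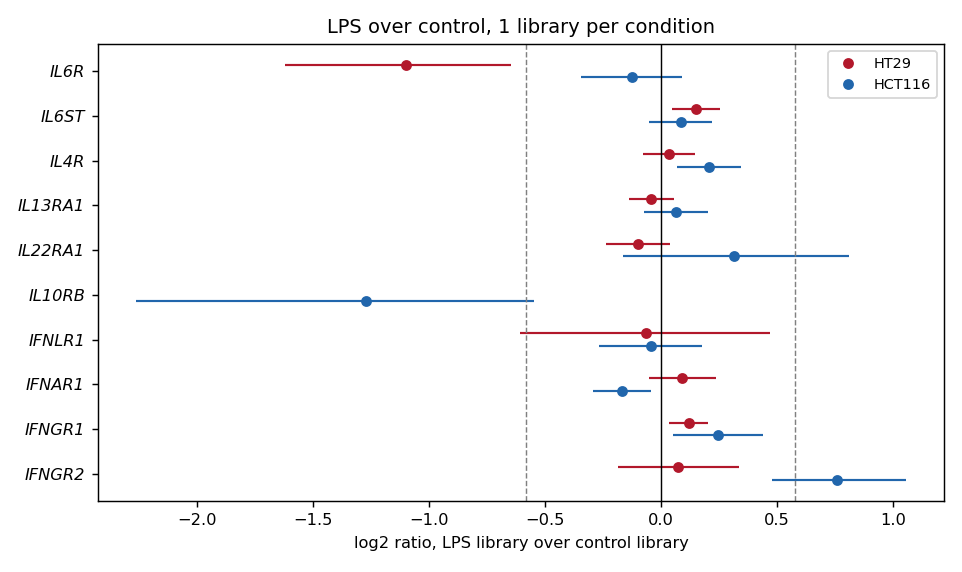
LPS over control as a log2 ratio of 1 library to 1 library (horizontal axis) for each chain in HT29 and HCT116 cells, with lines for the 95% counting interval and dashed lines at -0.58 and 0.58. *IL6R* in HT29 cells (-1.10) and *IL10RB* in HCT116 cells (-1.27) lie left of the dashed lines and *IFNGR2* in HCT116 cells (0.76) lies right of them. *IL10RB* in HT29 cells is not drawn.

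These receptors pair different chains, and the balance of the chains in RNA differed between the lines. In the interleukin 6 receptor the level of *IL6ST* was 19.4 times that of *IL6R* in HT29 cells with LPS and 8.0 times in the HT29 control, against 1.74 and 1.50 times in HCT116 cells. In the interferon-gamma receptor *IFNGR1* was 6.62 and 6.42 times *IFNGR2* in HT29 cells, against 1.27 and 1.82 times in HCT116 cells. *IL13RA1* and *IL4R* had ratios of 1.65 and 1.74 in HT29 cells and 1.22 and 1.35 in HCT116 cells. These are ratios of levels per kilobase of all exons, so they depend on the exon lengths used. Over the 4 libraries *IL13RA1* and *IL4R* had mean levels of 14.2 and 9.17 on these lengths. Per kilobase of the unshared bases of their canonical transcripts the values were 16.5 and 15.1, which are nearer to each other. RNA levels say nothing of the protein on the cell surface.

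Several partner chains were at or near 0 in a line. *LIFR*, which joins *IL6ST* to form the receptor for leukaemia inhibitory factor, had 0 and 0 counts in HT29 cells, against 395 and 424 counts in HCT116 cells, at least 119-fold lower in HT29 cells when 3 counts are set in each library at 0 (edgeR adjusted p = 1.6e-13). *OSMR*, which joins *IL6ST* to form the oncostatin M receptor, had 6 and 3 counts in HT29 cells, against 1470 and 1655 in HCT116 cells (log2 ratio between the lines with LPS -7.47, -9.33 to -6.75, and in the controls -8.11, -11.06 to -7.23). In HCT116 cells the level of *OSMR* was 2.37 and 2.59 times that of *IL6ST*. *IL6ST* itself, the chain that both need, was higher in HT29 cells.

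*IL20RB*, which joins *IL22RA1* to form a receptor for interleukins 20 and 24, was higher in HT29 cells, with 93 and 85 counts, against 31 and 26 counts in HCT116 cells (log2 fold change 1.83, SE 0.36, edgeR adjusted p = 1.4e-04). *IL22RA1* was 8.09 and 8.61 times *IL20RB* in HT29 cells, against 2.21 and 2.30 times in HCT116 cells. *IL10RA*, the binding chain of the interleukin 10 receptor, had 0 and 0 counts in HT29 cells and 37 and 33 in HCT116 cells. *IFNAR2*, the partner of *IFNAR1*, had 8 and 11 counts in HT29 cells and 38 and 42 in HCT116 cells, with 93.1% of its canonical transcript shared with other genes, among them the same readthrough gene. *IL11RA*, which joins *IL6ST* in the interleukin 11 receptor, had 19 and 5 counts in HT29 cells and 68 and 64 in HCT116 cells, with 97.2% of its canonical transcript shared. *IL2RG*, the common gamma chain that pairs with *IL4R* in blood cells, had 0 and 2 counts in HT29 cells and 0 and 0 in HCT116 cells.

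**Figure D4:**
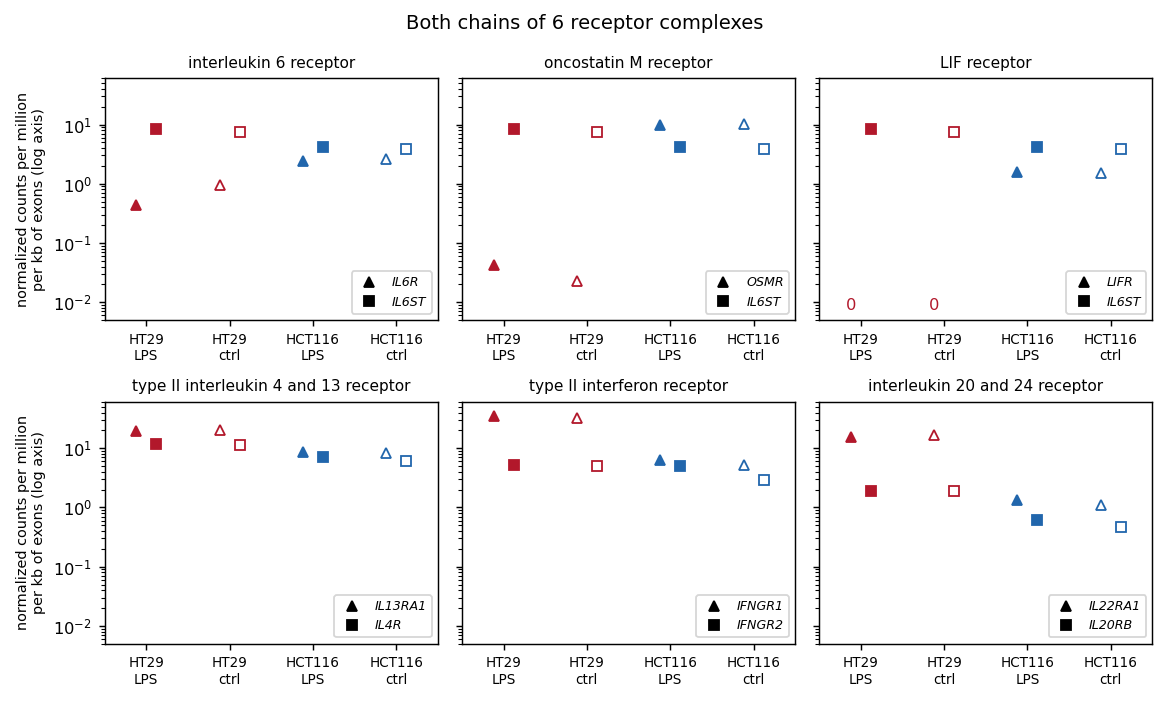
Levels of both chains of 6 receptor complexes in normalized CPM per kilobase (vertical log axis) in each library (horizontal axis, ctrl for control), with the triangle and the square naming the chains in each panel and 0 marking a library with no count. *IL6R* lies far below *IL6ST* in HT29 cells (ratio 19.4 with LPS), and *LIFR* is at 0 in HT29 cells.

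Wider lists of genes around the 10 chains were set against the same test of the lines. Of 42 partner and related chains 19 could be tested, of which 7 were higher and 10 lower in HT29 cells (against 38.0% and 38.6% of all genes), with a median log2 fold change of -1.01, which is the same with the genes at 0 in a line set to their bounds. *IL1R2*, the decoy receptor for interleukin 1, had 221 and 179 counts in HT29 cells, against 2 and 3 in HCT116 cells. *IL1RL2*, the receptor for interleukin 36, had 110 and 67 counts in HT29 cells, against 0 and 0 in HCT116 cells, at least 33.3-fold higher in HT29 cells. Of 23 ligands 13 had a count and 4 could be tested, of which 1 was higher and 3 lower in HT29 cells. *LIF* was lower in HT29 cells, with 881 and 718 counts against 2581 and 2478 counts in HCT116 cells (log2 fold change -1.48, SE 0.07, edgeR adjusted p = 3.1e-13), and *CLCF1*, a related cytokine, was higher, with 614 and 432 counts against 222 and 239 counts in HCT116 cells. Of their relatives, *IL11* had 10 and 26 counts in HT29 cells, against 70 and 99 in HCT116 cells (log2 fold change -2.08, SE 0.42, edgeR adjusted p = 1.7e-04). *CTF1* had 0 and 0 in HT29 cells, against 79 and 134 in HCT116 cells, at least 30.7-fold lower in HT29 cells. *IL6* had 0 and 0 counts in HT29 cells and 2 and 0 in HCT116 cells, and *IFNG*, *IFNB1*, *IFNL1* and *IFNL2* had 0 counts in all 4 libraries. *IFNE*, an epithelial type I interferon, had 31 and 24 counts in HT29 cells and 8 and 15 in HCT116 cells.

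Downstream of the chains, 3 of 12 JAK and STAT genes were higher and 6 lower in HT29 cells (against 38.0% and 38.6% of all genes, median log2 fold change -0.43). *JAK3*, the kinase bound by the common gamma chain, had 7 and 10 counts in HT29 cells, against 341 and 274 in HCT116 cells, and *STAT2*, which carries signals of the type I and III interferons, had 464 and 335 counts, against 1218 and 1422. *STAT4* had 7 and 10 counts in HT29 cells, against 47 and 81 in HCT116 cells, and *STAT5A* had 39 and 36, against 3 and 13. Of 17 negative regulators 3 were higher and 12 lower in HT29 cells (against 38.0% and 38.6% of all genes, median log2 fold change -0.72). *SOCS3*, the feedback inhibitor that binds *IL6ST*, had 3 and 6 counts in HT29 cells, against 549 and 515 in HCT116 cells (edgeR adjusted p = 4.8e-14), *SOCS1* had 7 and 4 against 195 and 260, *SOCS2* had 5 and 0 against 288 and 331, and *CISH*, another inhibitor of the family, had 19 and 17 against 92 and 100. Of 12 genes of receptor shedding and turnover 4 were higher and 3 lower (against the same 38.0% and 38.6%). *RNF128*, a ubiquitin ligase, had 1933 and 1940 counts in HT29 cells, against 179 and 231 counts in HCT116 cells (log2 fold change 3.44, SE 0.10, edgeR adjusted p = 2.5e-17). The ubiquitin ligase *NEDD4L* had 2610 and 2346 counts in HT29 cells, against 1141 and 1171, and *BTRC*, which marks *IFNAR1* for degradation, had 311 and 230, against 976 and 1002. *ADAM10*, a protease that can shed *IL6R*, had 5166 and 4584 counts in HT29 cells, against 2771 and 3257 counts in HCT116 cells (log2 fold change 0.89, SE 0.07, edgeR adjusted p = 1.9e-10).

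The genes that these receptors are known to induce went both ways. Of 30 interferon-stimulated genes 20 could be tested, of which 10 were higher and 8 lower in HT29 cells (against 38.0% and 38.6% of all genes, median log2 fold change 0.62). *BST2*, an antiviral membrane protein, had 1452 and 1148 counts in HT29 cells, against 58 and 28 counts in HCT116 cells, while *IFITM3*, another such protein, had 115 and 62 counts in HT29 cells, against 4380 and 4007 counts in HCT116 cells. *OAS1*, a sensor of double-stranded RNA, had 380 and 299 counts in HT29 cells, against 6 and 15 in HCT116 cells, and *UBE2L6*, the conjugating enzyme for ISG15, had 7 and 2, against 361 and 412. Of 13 testable STAT3 and STAT6 targets 6 were higher and 5 lower (against the same shares, median log2 fold change 0.11). *LCN2*, an antimicrobial protein induced in inflamed epithelium, had 2942 and 1859 counts in HT29 cells, against 24 and 28 counts in HCT116 cells, and the transcription factor *CEBPD* had 563 and 442, against 216 and 213. In the edgeR test of LPS over both lines, 0 genes of these lists passed. DESeq2 called 0 as well, but it gave no adjusted p for most of the partner chains and ligands tested, so it could not call those. Before adjustment, p was under 0.05 for 0 of 19 partner chains, 1 of 4 ligands, 1 of 12 JAK and STAT genes, 0 of 17 negative regulators, 1 of 12 genes of shedding and turnover, 3 of 20 interferon-stimulated genes and 3 of 13 STAT targets, against 7.58% of all genes.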

How the data were processed

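RNA of HT29 and HCT116 cells was sequenced as 1 LPS and 1 control library per line, and the authors deposited 1 table of raw counts per gene with the exon length of each gene, which the levels use (for *IL6R*, *IL6ST* and *IFNAR1* GENCODE 44 gives a longer one). According to the paper's methods and the processing notes of the submitters, reads were trimmed (cutadapt 1.9, Trimmomatic 0.39), aligned to hg38 with HISAT2 2.1.0 and counted with featureCounts 2.0.1 on a GENCODE annotation. The release and the settings for strand, overlapping genes and reads with several alignments were not given in the sources used here. Reads shared by overlapping genes or near-identical copies may therefore be lost or split.

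The deposited counts were normalized by TMM in edgeR 4.0.16 (R 4.3.3), and 14516 genes averaging 1 CPM or more were tested by the quasi-likelihood test with terms for line and LPS (1 residual degree of freedom) and Benjamini-Hochberg adjustment over all genes tested. DESeq2 1.42.0 was an alternative. Standard errors were the fold change divided by the root of F. Ratios of 2 libraries used a prior count of 2 and exact 95% Clopper-Pearson intervals, and levels used exact Poisson intervals. Both cover counting error only. The scripts were tested on simulated data. Symbols came from GENCODE 44 (61445 of 61544 identifiers), and copies were sought with minimap2 by aligning canonical transcripts to hg38 (at least 50% of the length at 98% identity). Promoter windows came from RefSeq (GRCh38.p14), and all 10 chains matched.

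All 10 chains are named. From the other lists, the genes called by either test were named, at most 4 per test by fold change, and the second chain of each complex, except that the mitochondrial genes are given mostly as a list; *TMEM50B*, *EPCAM*, *KRT20*, *PTPRC*, *IFNE* and ligands at or near 0 were added after their values were seen. The members and lists were chosen with earlier results of these data known.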

Additional observations from a re-analysis of the deposited data

Results flagged for a closer look

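In 3 chains the LPS ratio had opposite signs in the lines, and with 1 library per condition the difference was not tested. *IFNAR1* had a log2 ratio of 0.092 (-0.05 to 0.24) in HT29 cells and -0.17 (-0.29 to -0.04) in HCT116 cells. *IL22RA1* had -0.10 (-0.24 to 0.04) in HT29 cells and 0.31 (-0.16 to 0.81) in HCT116 cells. *IL13RA1* had -0.042 (-0.14 to 0.06) in HT29 cells and 0.064 (-0.07 to 0.20) in HCT116 cells. Of the 6 intervals, 5 included 0 and that of *IFNAR1* in HCT116 cells did not.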

How the results depend on the processing

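The count of chains called between the lines was 9, and it was 7 with DESeq2, 8 with DESeq2 size factors, library size alone or no term for LPS, 9 when 5 CPM was asked, when no filter was set or when the mitochondrial genome was left out, and 7 to 9 when each library was left out in turn, with a lone library assumed to vary like those of the other line. It was 5 when a log2 fold change past 1 was asked as well, a rule chosen after seeing the data. That rule drops *IL6ST*, *IL4R*, *IFNGR2* and *IFNAR1*. In the other alternatives the calls lost were those of *IFNGR2* and *IFNAR1*, and *IL10RB* entered the test and was called with no filter, without HT29 LPS and without the HT29 control, so that 8, 8 and 7 of the original 9 calls remained there. Without a filter the edgeR adjusted p of *IFNAR1* was 0.050. The 0 chains called with LPS stayed 0 under all 7 alternatives, of which DESeq2 gave an adjusted p for 4 of the 9. Without a term for the cell line, the LPS log2 fold change was -0.0096 for *IL13RA1* (0.0075 with it) and -0.068 for *IL22RA1* (0.032 with it), and the cause was not tested. The chains past 0.58 in HT29 cells numbered 0 with a minimum of 5 CPM and 2 with no filter, against 1, and in HCT116 cells 1 with a minimum of 5 CPM and 1 with a size of 1, against 2, since fewer or more chains were measured or the size was larger. In the order of levels 7 of 10 chains kept their rank with the exon lengths of GENCODE 44, added after seeing the data, where *IFNAR1* has 15676 bases in place of 6879 and went to rank 7 from rank 5. The same 7 is the count per base that no other gene covers, which uses that annotation too. Dividing by the unshared bases of the canonical transcript, also added later, kept 4 and moved *IL10RB* from rank 10 to rank 8. How reads on shared bases were counted is not known. The counts may also come from other exons, so this may be no level on those bases. No further paired analysis was possible because each line had 1 library per condition. The LPS test itself sets LPS against control within each line through the line term. Depth limits *IL10RB* and the chains with under 100 counts, and with 1 culture per condition no value carries a biological error.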
